A study of Rattus norvegicus with 20 samples.

Results

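The genes described here encode ion channels and their auxiliary subunits, water channels (aquaporins), purinergic receptors and the P-type ATPases that pump sodium, potassium, calcium or lipids. They were taken by symbol, from those starting with Kcn, Scn, Cacn, Clcn, Clca, Clic, Trpc, Trpm, Trpv, Aqp, Fxyd, Ano, Gja, Gjb, P2rx, P2ry, Atp1 or Atp2, among the 2311 gene identifiers that the study's own gene lists pair with a symbol. The rule found 57 members, out of 13302 genes tested. It found no TRP channel and no gap junction connexin, only 1 potassium channel gene (Kcne3) and only 1 sodium channel gene (Scn2a), so connexins and TRP channels are not analysed here. Of the study's lists, 1 was available only in its alphabetical first stretch. The small number of genes from these families therefore says nothing of how many of them differ in these cells. The prefix Atp1 also took Atp10a, Atp10b, Atp10d, Atp11a, Atp12a and Atp13a4, which belong to other branches of the P-type ATPases.

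RNA was sequenced from cultured epithelial cells of 5 rat tissues in 2 rounds of culture, with 2 samples in each of 10 groups. The cells of the 1st round had not been transplanted, and the cells of the 2nd round had been recovered from grafts in the skin of newborn mice that were placed on nude mice. The comparison asked how the expression of these genes changed once cells of non-hairy epithelia had lived in hair-forming skin. All cells came from Sprague-Dawley rats that express EGFP under an actin promoter (act-EGFP), were grown on irradiated 3T3-J2 mouse feeder cells and were sorted for EGFP. The donor rats were aged PN201 (postnatal day) for bladder (dome), PN200 for vagina and trachea, PN137 for thymus and PN57 for whisker follicle, so age and tissue of origin cannot be told apart. Bladder, trachea and vagina samples were bulk cultures in both rounds. The whisker samples were clone 7 before transplantation and subclone 14 after it, hence a single cell lineage each time. In whisker cells a difference between these clones and a change after transplantation therefore cannot be told apart. For the thymic cells, which had been stored frozen, the labels name both a bulk culture and clone 9 before transplantation, and a bulk culture with the number 907 after it. No source used here says that the 2 samples of a group came from separate animals or grafts, so p-values measure only the spread between these samples, which may be technical.

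The files held between 20723083 and 29824855 counts on genes per sample. Levels are given as CPM, the counts of a gene relative to its library's total, scaled between samples by the trimmed mean of M values (TMM) and not divided by gene length, so a level was compared between samples and not between genes. A library with 3 counts of a gene stood at 0.099 to 0.143 CPM, the lowest level taken as detected. A gene was called when its Benjamini-Hochberg adjusted p in a limma voom fit was under 0.05 and its change at least 2-fold, and rose or fell is written below for called changes only. Changes are log2 fold changes of the 2nd round against the 1st, with their standard error (SE). The name lists held genes that the study had found to differ from whisker cells, so a difference between a tissue and whisker cells was built into the choice. For the same reason all 57 members passed the filter on low values. Shares of members are therefore set beside the shares of all 13302 genes and of the 2311 named genes. In such bulk samples fewer cells of a type and less RNA per cell cannot be told apart. Of 5 epithelial markers, Cdh1 was between 814 and 2270 CPM on average in every group, and Epcam, Col17a1 and Dsg3 were at 145 CPM or more. Krt19 was not high throughout. It ran from 922 CPM in bladder cells before transplantation to 0.84 in recovered vaginal cells and 0.328 and 0.125 in whisker cells before and after. The bladder genes Upk1b and Foxa1 were at 179 and 101 CPM in bladder cells before transplantation, though Upk1b was also at 131 in tracheal and 144 in thymic cells, and the hair follicle gene Tfap2b was at 34.1 CPM in whisker cells. The thymic gene Aire, at 0.325 CPM in thymic cells before transplantation and 0.167 after it, did not mark them. Isl1, the other thymic gene examined, was highest in thymic cells, at 14.2 CPM before and 18 after. Tracheal cells were close to that, at 12.4 and 9.86 CPM.

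Stratified epithelia keep water and ion gradients across their layers with a shared set of proteins. The sodium pump (Na,K-ATPase) sets the sodium and potassium gradients, chloride and water channels use them to move fluid, and calcium channels and calcium pumps set the calcium level, a known switch of keratinocyte differentiation. Anoctamins and CLC proteins include both chloride channels and, respectively, lipid scramblases and chloride/proton exchangers. CLIC proteins exist in soluble and membrane forms, and CLCA proteins are secreted or membrane-bound regulators of chloride currents.

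The stretches upstream of 5 members are shown because these genes carry the main patterns below. Aqp9, Cacna1c and Fxyd4 were the members that rose in at least 3 of the 4 non-hair tissues, Atp2a3 fell in 3 of them, and Aqp5 had the lowest fitted change of all members (-6.10, in thymic cells). Each is the 250 bases before the annotated gene start in RefSeq, on the assembly GRCr8, which is not the Rnor_6.0 assembly of the counts. They lie at chr8:80718189-80718438 (minus strand), chr4:154051749-154051998 (minus strand), chr4:152786046-152786295 (minus strand), chr10:58080402-58080651 (plus strand) and chr7:132601278-132601527 (plus strand). Capitals mark matches, on either strand, to a CCAAT box (CCAAT), a GC box (GGGCGG), an E-box (CACGTG) or a Grainyhead core (AACCGG).
Aqp9: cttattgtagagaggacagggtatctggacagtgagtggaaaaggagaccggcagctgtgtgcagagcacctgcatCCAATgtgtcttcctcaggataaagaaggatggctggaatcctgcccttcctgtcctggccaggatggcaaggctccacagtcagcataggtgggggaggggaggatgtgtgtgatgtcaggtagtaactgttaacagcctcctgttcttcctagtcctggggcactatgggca
Cacna1c: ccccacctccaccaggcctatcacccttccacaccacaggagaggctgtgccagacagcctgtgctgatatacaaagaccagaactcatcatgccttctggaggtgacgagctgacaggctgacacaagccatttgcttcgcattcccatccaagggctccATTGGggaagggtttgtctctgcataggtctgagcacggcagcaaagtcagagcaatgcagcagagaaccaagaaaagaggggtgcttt
Fxyd4: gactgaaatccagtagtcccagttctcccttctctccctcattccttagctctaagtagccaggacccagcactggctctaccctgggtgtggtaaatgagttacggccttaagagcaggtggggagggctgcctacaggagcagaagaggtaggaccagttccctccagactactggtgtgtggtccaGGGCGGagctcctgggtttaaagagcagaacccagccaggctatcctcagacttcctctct
Atp2a3: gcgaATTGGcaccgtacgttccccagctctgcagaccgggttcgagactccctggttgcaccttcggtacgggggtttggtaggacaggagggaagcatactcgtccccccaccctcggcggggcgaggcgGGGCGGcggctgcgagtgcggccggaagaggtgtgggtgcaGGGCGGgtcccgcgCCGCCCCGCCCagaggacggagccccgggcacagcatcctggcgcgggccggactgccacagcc
Aqp5: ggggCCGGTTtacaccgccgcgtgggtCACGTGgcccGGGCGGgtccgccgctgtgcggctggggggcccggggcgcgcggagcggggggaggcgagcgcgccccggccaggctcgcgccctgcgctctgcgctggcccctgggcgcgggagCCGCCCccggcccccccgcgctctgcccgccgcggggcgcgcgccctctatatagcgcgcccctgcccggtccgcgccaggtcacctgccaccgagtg
The CCAAT match lay 174 bases before the start in Aqp9 and 89 bases before it in Cacna1c, and the Fxyd4 window had a GC box 61 bases before the start. Atp2a3 had 4 GC box matches, of which the pair nearest the start overlapped by 1 base, and Aqp5 had 2 GC boxes, an E-box and a Grainyhead core. None of the 5 held TATAAA, the AP-1 letters TGANTCA or the forkhead letters TGTTTAC. Of 33469 such windows in the rat, 34% held CCAAT, 30.5% GGGCGG, 5.59% CACGTG, 5.67% AACCGG, 12.9% TATAAA, 6.34% TGANTCA and 3.21% TGTTTAC. RefSeq windows were found by symbol for 43 of the 57 members, 35 of them with a single window. Of those 35, 13 held CCAAT and 20 held GGGCGG. These are matches of letters and say nothing of binding.

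After transplantation the members changed most often in bladder and thymus, and the direction depended on the tissue. In bladder cells 15 of 57 members rose (26.3%) and 14 fell (24.6%), where 10.1% and 11.0% of all genes, and 20.9% and 22.2% of the named genes, did so. In thymic cells 16 rose (28.1%) and 6 fell (10.5%), beside 8.49% and 6.89% of all genes and 19.3% and 14.6% of the named genes. Tracheal cells had the opposite balance, with 6 members up (10.5%) and 13 down (22.8%), beside 4.39% and 8.04% of all genes and 10.1% and 17.5% of the named genes. In vaginal cells 6 rose and 9 fell (10.5% and 15.8%), beside 4.25% and 7.53% of all genes and 8.96% and 17.8% of the named genes. Whisker cells, which started and ended as hair follicle cells, had 2 members up and 10 down (3.51% and 17.5%), beside 2.15% and 3.83% of all genes and 5.67% and 9.69% of the named genes. The clone of the whisker cells also differed between the rounds. The members had been drawn from genes listed as differing, so shares above those of all genes are no result about them, and their shares lay on both sides of those of the named genes. The rises in whisker cells were only Fxyd6 and P2rx5, and the call of Fxyd6 depended on single samples. The median change of the 57 members was 0.66 in thymic cells, beside 0.11 for the named genes and 0 for all genes. In tracheal cells it was -0.31, beside -0.05 and 0.02.

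**Figure D1:**
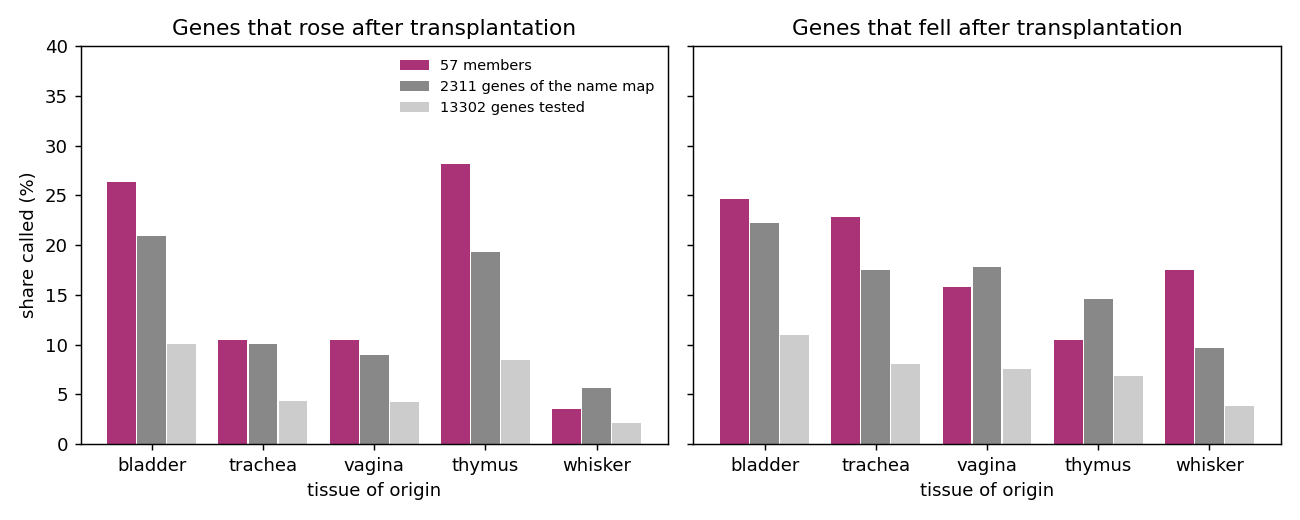
Share of genes called (per cent, bars from 0) that rose (left) or fell (right) after transplantation in each tissue of origin, for the 57 members, the 2311 genes with a name and all 13302 genes tested. Among the bars for rises, the members' are highest in bladder (26.3%) and thymus (28.1%), and whisker is lowest (3.51%).

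**Figure D2:**
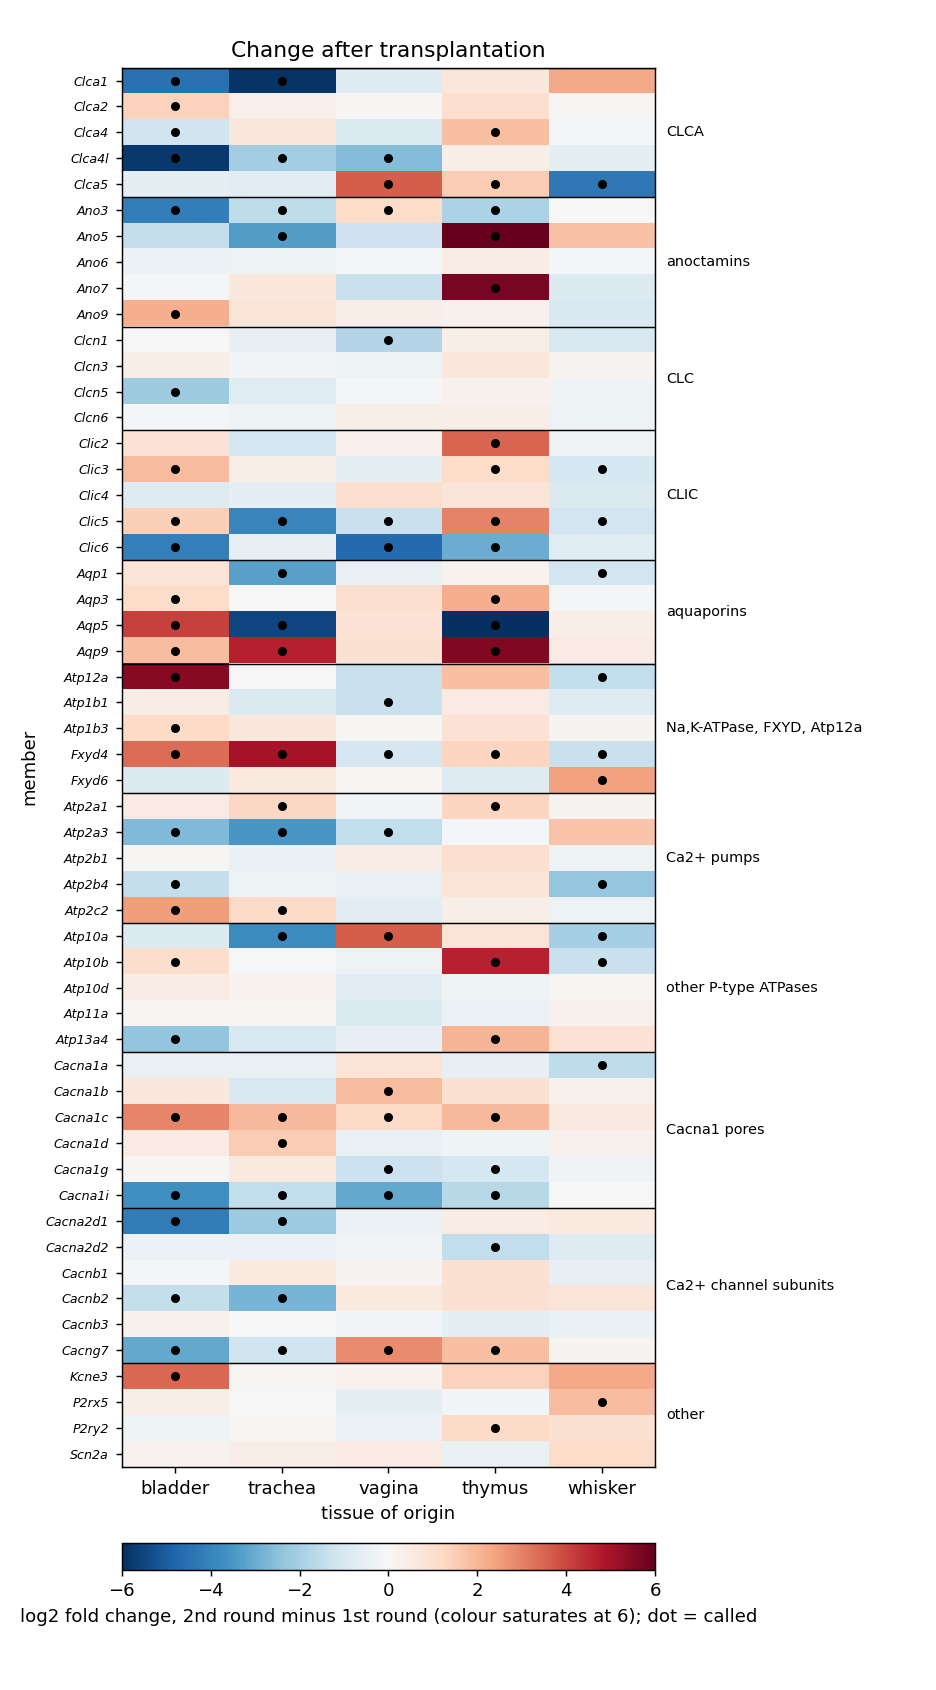
Log2 fold change of the members described (rows, grouped by family) from the 1st to the 2nd round in each tissue of origin (columns), red for higher and blue for lower after transplantation, with colours ending at 6; a dot marks a called change. Cacna1c is red and dotted in all 4 non-hair tissues and Cacna1i blue and dotted in all 4, while Aqp5, Clic5 and Fxyd4 hold dots of both colours.

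Only a few members changed the same way across the non-hair tissues. Aqp9, Cacna1c and Fxyd4 rose in at least 3 of the 4, that is 3 of 57 members, beside 1.53% of all genes and 4.02% of the named genes. Ano3, Atp2a3, Cacna1i, Clca4l and Clic6 fell in at least 3 of the 4, beside 2.65% of all genes and 6.49% of the named genes. A further pattern was more frequent, since 9 members rose in 1 non-hair tissue and fell in another (Ano3, Ano5, Aqp5, Atp10a, Atp13a4, Cacng7, Clca4, Clic5 and Fxyd4). That is 15.8% of the members, against 6.73% of all genes and 15.8% of the named genes, so it was no more common here than among named genes.

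All 4 aquaporins were called in at least 1 tissue, a count for which no share of all genes was computed. Aqp9 is an aquaglyceroporin that passes water, glycerol and other small solutes. It was at 1.00 and 1.01 CPM in the tracheal samples before transplantation and at 26.4 and 25.9 after it, a rise of 4.68 (SE 0.29, adjusted p = 4.3e-09). In thymic cells it went from 0.159 and 0.456 to 12.7 and 14.6 CPM (5.56, SE 0.44, adjusted p = 4e-08). The samples of the 2 rounds lay far apart in both tissues, although the thymic value moved between 4.84 and 6.27 when thymic sample 1 or sample 2 of the 1st round was left out. Bladder cells rose less, from 3.99 and 2.37 to 11.7 and 11.1 CPM (1.86, SE 0.21, adjusted p = 1.1e-06). Vaginal cells were already highest before transplantation, at 22.4 and 25.3 CPM, and stood at 45.6 and 43.0 after it, a change of 0.90 that stayed under 2-fold. Whisker cells had 6.45 and 5.86 CPM before and 9.21 and 8.31 after (0.50, adjusted p = 0.05). After transplantation all 4 non-hair tissues were thus above the whisker samples in Aqp9.

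Aqp5, the water channel of the apical membrane of airway and gland cells, moved in opposite directions. Tracheal samples had 19.4 and 22.1 CPM before transplantation and 0.282 and 0.620 after it (-5.51, SE 0.42, adjusted p = 4.6e-08). Thymic samples went from 7.02 and 5.67 to 0.0849 and 0.0660 CPM, below the detection floor (-6.10, SE 0.64, adjusted p = 1.1e-06), so the size of that fall depends on the small count added before logs. Both tissues with much Aqp5 had thus almost none after recovery. In bladder cells 1 count became 28 (0.0373 and 0 CPM, then 0.905 and 0.387), a depth-scaled ratio of 31.6 with a 95% counting interval of 5.23 to 1290. Its fitted change there was 4.11, or 4.81 and 3.43 without 1st-round samples 1 and 2. Vaginal and whisker samples stayed between 0.0382 and 0.208 CPM in both rounds.

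Aqp3, the glycerol and water channel of basal keratinocytes, rose in thymic cells from 77.5 and 68.1 to 330 and 333 CPM (2.19, SE 0.13, adjusted p = 2e-09). It also rose in bladder cells, from 143 and 222 to 377 and 378 CPM (1.08, SE 0.13), but the change was 0.76 without 1st-round bladder sample 1. The vaginal change of 0.95, from 112 and 118 to 221 and 224 CPM, missed the 2-fold limit, and tracheal and whisker cells had -0.02 and -0.05. Aqp1, the classical water channel of red cells and capillaries, fell in tracheal cells from 8.19 and 7.93 to 0.704 and 0.912 CPM (-3.28, SE 0.31, adjusted p = 4.8e-07). Its fall in whisker cells (-1.16) was lost when 1st-round whisker sample 2 (-0.83) or 2nd-round whisker sample 1 (-0.96) was left out. Tracheal cells, which came from an airway lining, thus fell in both Aqp1 and Aqp5 and rose in Aqp9.

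**Figure D3:**
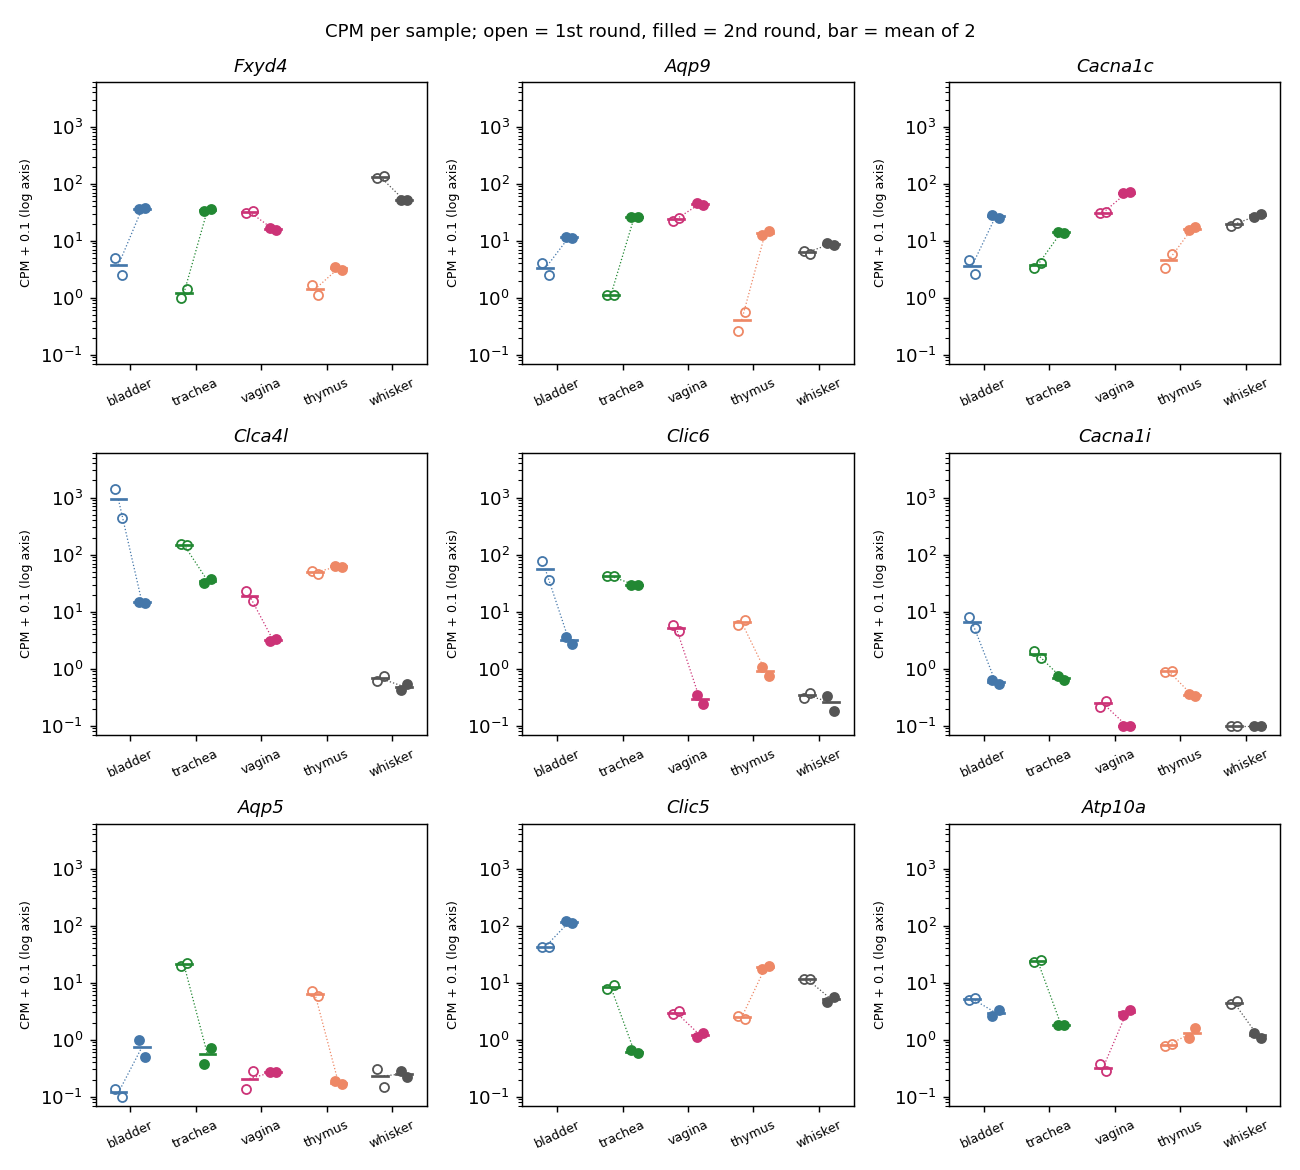
CPM of 9 members in each sample, on a log axis with 0.1 added, by tissue of origin; open circles are the 1st round, filled circles the 2nd, bars the mean of 2 samples, and dotted lines join the means. Fxyd4 shows the bladder and tracheal samples climbing from 0.884 to 4.89 CPM up to 33.2 to 37.2 CPM while vaginal and whisker samples come down, and Clca4l shows the wide gap between the 2 bladder samples of the 1st round.

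Among the subunits of the sodium pump, the beta subunit Atp1b3 rose in bladder cells from 294 and 293 to 657 and 703 CPM (1.21, SE 0.08, adjusted p = 2.2e-09). Its 2 rounds lay well apart there, and it was called in no other tissue. Its changes were 0.86 in thymic, 0.66 in tracheal, 0.07 in vaginal and 0.16 in whisker cells. Atp1b1, the beta subunit common in transporting epithelia, had 69.2 and 64.4 CPM in vaginal cells before and 26.3 and 26.3 after, a fall of 1.34 on the log2 scale (SE 0.13, adjusted p = 4.6e-07). Elsewhere its changes ran from -0.88 in tracheal to 0.49 in thymic cells and were not called. It was called higher in bladder cells than in each of the other non-hair tissues in both rounds, at 314 and 294 CPM before and 410 and 412 after.

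Fxyd4 and Fxyd6 belong to the small FXYD proteins that tune the sodium pump. Fxyd4 rose in tracheal cells from 0.884 and 1.33 to 33.2 and 36.4 CPM (4.99, SE 0.31, adjusted p = 4.8e-09) and in bladder cells from 4.89 and 2.46 to 35.3 and 37.2 (3.35, SE 0.20, adjusted p = 1.1e-09). In thymic cells it rose from 1.59 and 1.04 to 3.44 and 2.94 CPM (1.28, SE 0.34), with 0.99 and an adjusted p of 0.054 when 1st-round thymic sample 2 was left out. The other tissues went down. Vaginal cells fell from 30.5 and 33.7 to 16.6 and 15.4 CPM (-1.01, SE 0.13), a change of -0.94 without vaginal sample 2 of either round. Whisker cells, the highest of all, fell from 127.9 and 136.6 to 51.4 and 52.2 CPM (-1.35, SE 0.11, adjusted p = 1.6e-07). The contrast of the tracheal rise with the whisker fall, taken because the 2 calls were opposite, was 6.34 (SE 0.33, adjusted p = 1.5e-09). Fxyd6 was called only in whisker cells, where 1 count became 9, a depth-scaled ratio of 8.85 with an interval of 1.23 to 388. That call did not survive leaving out any of 3 whisker samples (1.79 without 1st-round sample 2, 2.53 and 2.42 without 2nd-round samples 1 and 2), and the value was 3.21 without 1st-round sample 1.

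Atp12a, the non-gastric proton/potassium pump, stood out in bladder cells. Its level was 0.224 and 0.0431 CPM there before transplantation and 6.05 and 5.29 after it (5.46, SE 0.99, adjusted p = 0.00019). The 1st-round bladder samples held 7 counts together, so the size of this rise depends on the small count added before logs. The estimate ran from 4.54 without 1st-round bladder sample 2 to 6.45 without sample 1. Whisker cells had 13.9 and 13.1 CPM before and 8.01 and 2.99 after (-1.50, SE 0.32), a change of -0.75 without 2nd-round whisker sample 2 and of -2.18 without sample 1. Tracheal, vaginal and thymic samples stayed at or below 0.467 CPM in both rounds. Recovered bladder cells were thus the non-hair cells with Atp12a near the whisker level, and they were called above each of the other 3 tissues.

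**Figure D4:**
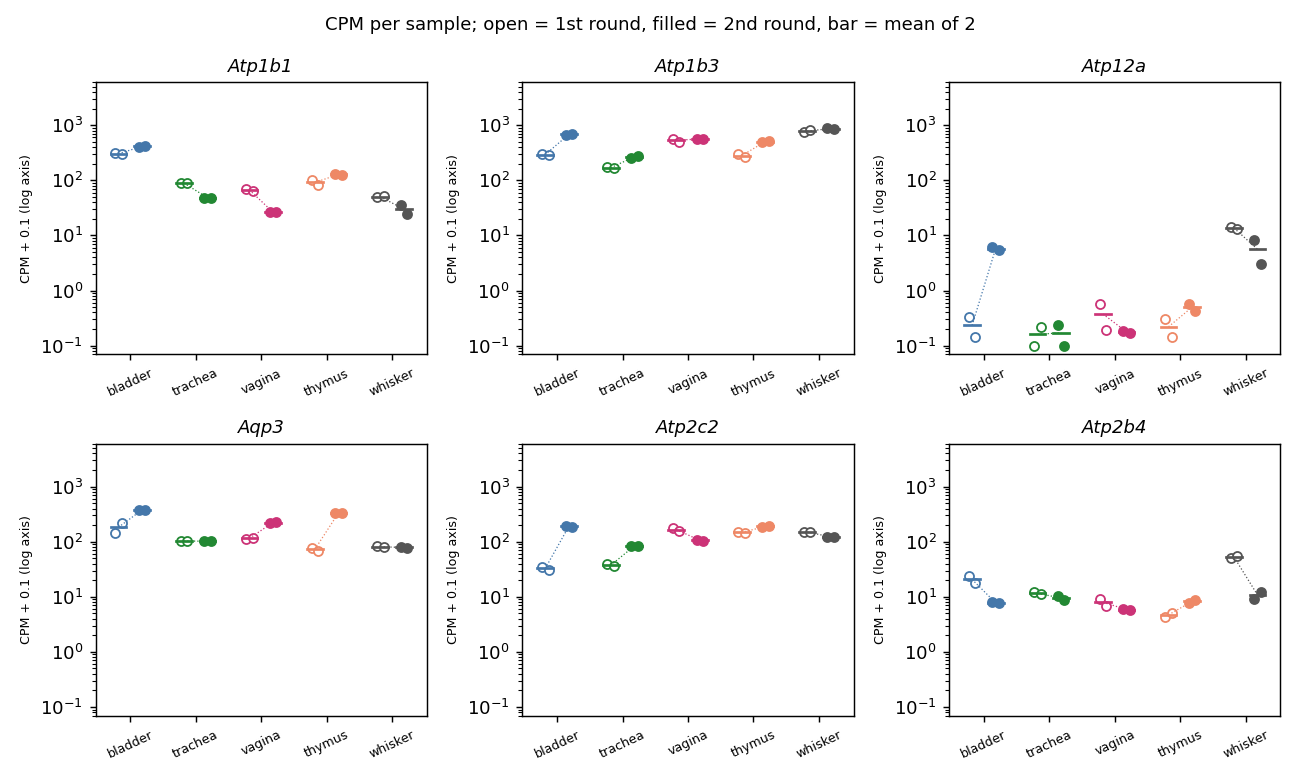
CPM of 5 pump genes or pump subunits and Aqp3 in each sample, on a log axis with 0.1 added, by tissue of origin; open circles are the 1st round, filled circles the 2nd, and bars the mean of 2 samples. Atp2b4 drops in whisker from 50.3 and 54.9 CPM to 8.98 and 12.4 CPM, while Atp12a climbs in bladder from 0.0431 and 0.224 CPM to 5.29 and 6.05 CPM and its 2nd-round whisker samples lie apart at 8.01 and 2.99 CPM.

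Among the calcium pumps, the secretory pathway pump Atp2c2, which loads calcium and manganese into the Golgi, rose in bladder cells from 34.3 and 31.1 to 195 and 184 CPM (2.53, SE 0.08, adjusted p = 9.2e-13). It also rose in tracheal cells, from 38.9 and 35.6 to 84.4 and 82.7 CPM (1.16, SE 0.08, adjusted p = 2.1e-08). Both tissues had started far below the 141 to 178 CPM of vaginal, thymic and whisker samples. Atp2a3, a calcium pump of the endoplasmic reticulum (SERCA3), fell in tracheal cells from 5.42 and 6.28 to 0.423 and 0.584 CPM (-3.48, SE 0.39, adjusted p = 3.5e-06). Bladder cells fell from 4.74 and 4.78 to 0.619 and 0.861 CPM (-2.66, SE 0.37, adjusted p = 1.1e-05). Its vaginal fall (-1.48) was lost without sample 2 of the 1st (-1.12) or of the 2nd round (-1.14), and thymic cells kept 0.953 to 1.51 CPM. Atp2a1, the muscle SERCA, rose in tracheal (1.24) and thymic (1.31) cells at levels up to 2.63 CPM. Both calls were lost when certain samples were left out, the tracheal one without either 1st-round sample (1.23 each) or 2nd-round sample 1 (0.87), the thymic one without 1st-round sample 1 (0.94).

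The plasma membrane calcium pumps differed from each other. Atp2b4 fell in whisker cells from 50.3 and 54.9 to 8.98 and 12.4 CPM (-2.30, SE 0.15, adjusted p = 3.1e-08) and in bladder cells from 23.6 and 17.5 to 7.86 and 7.49 CPM (-1.41, SE 0.18, adjusted p = 5e-06). Its 2nd-round samples lay between 5.67 and 12.4 CPM in all 5 tissues, a narrower range than the 4.25 to 54.9 CPM of the 1st round. Atp2b1, the housekeeping pump of this branch, was at 71.7 to 253 CPM and called in no tissue. Its largest change was 0.98 in thymic cells, from 71.7 and 105 to 169 and 174 CPM.

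The remaining P-type ATPases included lipid flippases. Atp10a, a phospholipid flippase, fell in tracheal cells from 22.9 and 25.3 to 1.74 and 1.68 CPM (-3.80, SE 0.20, adjusted p = 6.3e-10). It rose in vaginal cells from 0.268 and 0.177 to 2.56 and 3.27 CPM (3.61, SE 0.40, adjusted p = 2.6e-06). Whisker cells fell from 4.12 and 4.59 to 1.20 and 0.983 CPM (-1.98, SE 0.26). The samples converged, from 0.177 to 25.3 CPM before transplantation to 0.977 to 3.27 CPM after it. Atp10b rose in thymic cells from 0.357 and 0.704 to 13.2 and 12.4 CPM (4.62, SE 0.48, adjusted p = 8.2e-07). Its calls in bladder (1.04) and whisker cells (-1.35) were weak. The bladder value was 0.36 without 1st-round sample 1, 1.63 without 1st-round sample 2 and 0.94 without 2nd-round sample 1, and the whisker call was lost without 1st-round sample 1 (-1.06) or 2nd-round sample 1 (-1.21) or 2 (-1.52). Atp13a4 rose in thymic cells from 0.476 and 0.166 to 1.02 and 1.45 CPM (2.04, SE 0.48), with 1.35 and 2.74 without 1st-round samples 2 and 1. In bladder cells it went from 13 counts to 2, a ratio of 5.75 with an interval of 1.3 to 52.5, and the fitted fall (-2.37) was not called without 1st-round sample 1 (-1.91) or 2nd-round sample 1 (-1.31) and was -3.49 without 2nd-round sample 2. Atp10d and Atp11a were called in no tissue, and their largest changes were -0.69 and -0.86 in vaginal cells, where Atp11a went from 529 and 563 to 303 and 298 CPM.

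The CLCA genes are named here by their identifiers, because these symbols have been moved between rat genes over time. Clca4l (ENSRNOG00000036877) had 1415 and 441 CPM in bladder cells before transplantation and 15 and 14 after it (-5.77, SE 0.41, adjusted p = 6.2e-09). The 2 samples of the 1st round lay far apart, and the change was -4.93 without sample 1 and -6.62 without sample 2. Tracheal cells fell from 153 and 146 to 32.3 and 37.6 CPM (-2.09, SE 0.35), and vaginal cells from 22.9 and 15.4 to 2.93 and 3.27 CPM (-2.60, SE 0.68). Thymic cells did not follow, with 52.0 and 45.4 CPM before and 63.1 and 61.7 after, and whisker samples stayed at or below 0.656 CPM. Reads with several alignments were not counted, so genes with near-identical copies, as Clca4 and Clca4l may be, could lose reads.

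Clca1 (ENSRNOG00000060831) fell in bladder cells from 31.9 and 39.4 to 2.00 and 1.21 CPM (-4.50, SE 0.65, adjusted p = 2e-05). Its tracheal fall (-5.86, SE 1.55) went from 4.92 and 4.51 CPM to 0.423 and 0, with -3.41 and an adjusted p of 0.079 without 2nd-round tracheal sample 2 and -8.02 without sample 1. Clca4 (ENSRNOG00000029889) fell in bladder cells from 50.8 and 65.2 to 23.5 and 26.9 CPM (-1.19, SE 0.12) and rose in thymic cells from 2.42 and 3.48 to 10.3 and 9.87 CPM (1.79, SE 0.22). Clca2 (ENSRNOG00000013771), at 305 CPM or more in every sample, rose in bladder cells from 384 and 363 to 939 and 976 CPM (1.36, SE 0.08, adjusted p = 8.3e-10) and reached 0.99, just under 2-fold, in thymic cells. Clca5 (ENSRNOG00000013334) fell in whisker cells from 2.66 and 2.25 to 0.0921 and 0.123 CPM (-4.27, SE 0.52), where the 2nd round was below the floor, and went from 2 counts to 40 in vaginal cells, a ratio of 18.5 with an interval of 4.8 to 158. Its thymic rise (1.52) was lost without 2nd-round thymic sample 2 (1.30). Of the 5 CLCA genes, 3 fell and 1 rose in bladder cells, and 2 rose and none fell in thymic cells. In bladder cells 22.2% of the named genes and 11.0% of all genes fell, and 20.9% and 10.1% rose. In thymic cells 19.3% and 8.49% rose, and 14.6% and 6.89% fell. Counts over 5 genes are too few to set against these shares.

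Among the anoctamins, Ano3 fell in bladder cells from 38.5 and 23.6 to 1.86 and 1.51 CPM (-4.17, SE 0.38, adjusted p = 1.1e-07). It also fell in tracheal cells, from 10.00 and 9.54 to 3.76 and 3.14 CPM (-1.52, SE 0.30), and in thymic cells, from 2.74 and 4.18 to 0.722 and 1.09 CPM (-1.88, SE 0.50). The vaginal cells differed, with 1.91 and 2.97 CPM before and 5.07 and 5.15 after (1.12, SE 0.37, adjusted p = 0.023). That vaginal call was lost without 1st-round sample 1 (0.76) or 2nd-round sample 1 (1.12, adjusted p = 0.058) or 2 (1.11, adjusted p = 0.074). Ano5 and Ano7 appeared in recovered thymic cells. Ano5 went from 1 count to 143 there (0 and 0.0414 CPM, then 2.17 and 3.04), a ratio of 131 with an interval of 23.1 to 5210, and the fitted change (6.24) was 5.39 and 7.06 without 1st-round samples 1 and 2. Ano7 went from 2 counts to 168 (2.94 and 3.35 CPM after), a ratio of 77.0 with an interval of 21 to 641. Ano7 had no more than 0.229 CPM in any other group. In tracheal cells Ano5 had 10 counts before and 0 after, at least 1.57-fold lower, and that call was lost without 1st-round sample 1 (-3.13) or without sample 1 (-3.55) or 2 (-3.18) of the 2nd round. Ano9 rose in bladder cells from 6.31 and 5.95 to 28.7 and 26.9 CPM (2.17, SE 0.15, adjusted p = 4.8e-09) and was not called elsewhere. Ano6, the phospholipid scramblase of most cells, was at 71.6 to 234 CPM and called in no tissue, with changes from -0.35 in bladder to 0.43 in thymic cells.

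Among the CLIC genes, Clic3 and Clic5 rose in some tissues and fell in others. Clic5, which links membranes to the actin cortex, rose in bladder cells from 42.8 and 42.2 to 118 and 112 CPM (1.44, SE 0.07, adjusted p = 1.4e-10) and in thymic cells from 2.54 and 2.20 to 17.3 and 19.6 CPM (2.96, SE 0.17, adjusted p = 7.4e-10). It fell in tracheal cells from 7.77 and 8.89 to 0.563 and 0.474 CPM (-3.96, SE 0.29, adjusted p = 2.3e-08). Vaginal cells fell from 2.71 and 3.06 to 1.01 and 1.22 CPM (-1.35, SE 0.25), and whisker cells from 11.4 and 11.5 to 4.56 and 5.61 CPM (-1.17, SE 0.14). No sample of the 2 rounds overlapped in any of the 5 tissues. The change in thymic cells exceeded that in tracheal cells, a pair taken because its calls were opposite, by 6.92 (SE 0.33, adjusted p = 2.3e-10).

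Clic6 fell in bladder cells from 76.0 and 35.9 to 3.57 and 2.58 CPM (-4.12, SE 0.43, adjusted p = 5e-07), in vaginal cells from 5.70 and 4.52 to 0.251 and 0.139 CPM (-4.66, SE 1.04, adjusted p = 0.0021) and in thymic cells from 5.79 and 6.96 to 0.977 and 0.660 CPM (-2.98, SE 0.69, adjusted p = 0.0021). Tracheal cells kept it, with 41.9 and 42.0 CPM before and 29.5 in both samples after (-0.51, adjusted p = 0.085), and they were the tissue called above the other 3 in the 2nd round. Clic2 rose in thymic cells from 0.635 and 0.538 to 6.16 and 7.23 CPM (3.48, SE 0.35, adjusted p = 5.5e-07). Clic3 rose in bladder cells from 8.36 and 10.1 to 36.1 and 33.1 CPM (1.91, SE 0.16) and fell in whisker cells from 13.8 and 13.4 to 6.54 and 6.39 CPM (-1.07, SE 0.19). Its thymic rise of 1.10 was under 2-fold without 1st-round sample 2 (0.80) or 2nd-round sample 1 (1.00). Clic4, at 18.3 to 89.2 CPM, was called in no tissue and changed by 0.96 in vaginal cells, from 34.1 and 35.1 to 65.7 and 68.8 CPM, and by -0.85 in whisker cells.

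The CLC genes changed little. Clcn5, the endosomal chloride/proton exchanger, fell in bladder cells from 42.3 and 30.2 to 7.67 and 8.61 CPM (-2.14, SE 0.26, adjusted p = 2.8e-06). Clcn1, the muscle chloride channel, had 32 counts before and 10 after in vaginal cells (-1.74), a call lost without 1st-round sample 1 (-1.50) or 2nd-round sample 1 (-1.35) or 2 (-2.17). Clcn3 (45.6 to 139 CPM) and Clcn6 (17.1 to 44.1 CPM), of endosomes and lysosomes, were called in no tissue, with changes from -0.32 to 0.66 and from -0.31 to 0.39.

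Voltage-gated calcium channels are built of a Cacna1 pore with Cacna2d and Cacnb subunits, and Cacng7 belongs to the gamma family. Cacna1c, the L-type pore, was the only member that rose in all 4 non-hair tissues. Bladder cells went from 4.59 and 2.54 to 28.2 and 25 CPM (2.92, SE 0.23, adjusted p = 1.6e-08), tracheal cells from 3.27 and 3.98 to 14.3 and 13.8 CPM (1.95, SE 0.23, adjusted p = 5.5e-06), and thymic cells from 3.18 and 5.67 to 15.5 and 17.1 CPM (1.95, SE 0.22, adjusted p = 1.8e-06). Vaginal cells, highest already, went from 30.5 and 31.4 to 68.4 and 70.2 CPM (1.16, SE 0.12, adjusted p = 1.7e-06). In each tissue the lower 2nd-round sample lay above the higher 1st-round sample, and none of these calls was lost when a sample was left out. Whisker cells had 18.4 and 20 CPM before and 26.1 and 29.5 after (0.53, under 2-fold).

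Cacna1i, a T-type pore, went the other way and was the only member that fell in all 4 non-hair tissues. In bladder cells it fell from 7.88 and 5.04 to 0.524 and 0.430 CPM (-3.69, SE 0.36, adjusted p = 2.3e-07). Its other falls rested on few counts, from 86 to 29 in tracheal cells (-1.46), from 40 to 13 in thymic cells (-1.67) and from 7 to 0 in vaginal cells, at least 1.27-fold lower. Each of these was lost without 2nd-round sample 2 of its tissue, at -1.32, -1.61 and -2.95. Whisker cells had no count of Cacna1i in either round. Cacna1g, another T-type pore, fell in vaginal cells from 26.6 and 22.6 to 10.8 and 9.64 CPM (-1.28, SE 0.21) and in thymic cells by 1.07 on the log2 scale, which was -0.83 without 1st-round thymic sample 2. Among the pores best known from neurons, Cacna1b rose in vaginal cells from 1.03 and 1.15 to 3.35 and 4.91 CPM (1.90, SE 0.25, adjusted p = 1.5e-05) and Cacna1a fell in whisker cells (-1.53), a call lost without 2nd-round sample 1 (-1.38) or 2 (-1.70). Cacna1d, a further L-type pore, rose in tracheal cells from 1.81 and 1.65 to 4.88 and 5.03 CPM (1.51, SE 0.34).

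The auxiliary subunits were mostly low. Cacnb3, at 50.9 to 118 CPM in all samples, was called in no tissue, and nor was Cacnb1. Cacna2d2 fell in thymic cells from 2.06 and 2.49 to 0.934 and 0.693 CPM (-1.49, SE 0.27, adjusted p = 0.00027). Cacna2d1 went from 51 counts to 2 in bladder cells, a ratio of 22.6 with an interval of 5.93 to 191, its fitted change being -4.18, or -3.13 and -5.31 without 2nd-round samples 1 and 2. Cacnb2 went from 21 to 2 counts in tracheal cells, a ratio of 10.1 with an interval of 2.46 to 88.5, and from 92 to 29 in bladder cells (-1.45). The tracheal calls of Cacna2d1 (-2.20) and Cacnb2 (-2.80) were each lost without 3 of the 4 tracheal samples, at -1.73 to -2.74 and -2.61 to -2.98, and the bladder call of Cacnb2 without either 2nd-round sample (-1.58 and -1.33). Cacng7 fell in bladder cells from 1.94 and 1.12 to 0.190 and 0.129 CPM (-3.09, SE 0.51). Its other calls, in tracheal (-1.21), vaginal (2.83) and thymic cells (1.82), were each lost under at least 2 ways of leaving out a sample, at values of -1.38 to -1.01, of 2.16 and 2.40 and of 1.42 to 1.86, and its vaginal change was from 1 count to 13, a ratio of 12 with an interval of 1.81 to 512, with a fitted value of 3.52 without 1st-round vaginal sample 1.

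Of the other channels and receptors, Kcne3, a potassium channel beta subunit of secretory epithelia, rose in bladder cells from 0.896 and 2.20 to 16.9 and 13.6 CPM (3.45, SE 0.32, adjusted p = 1.6e-07), with 2.77 and 4.05 without 1st-round samples 1 and 2. It was not called elsewhere, and recovered bladder cells were called above each of the other non-hair tissues. P2rx5, an ATP-gated cation channel, rose in whisker cells from 1.75 and 1.55 to 6.4 and 5.73 CPM (1.86, SE 0.23, adjusted p = 1.7e-05), which put it within the 5.71 to 11.3 CPM of the other recovered cells. P2ry2, the receptor for ATP and UTP, rose in thymic cells from 68.0 and 64.4 to 153 and 140 CPM (1.15, SE 0.10, adjusted p = 8.3e-08) and changed by 0.91 in whisker cells, from 24.8 and 24.5 to 52.2 and 41.4 CPM. Scn2a, a neuronal sodium channel pore, reached 1.29 CPM at most and was called nowhere.

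The non-hair tissues differed from each other before and after transplantation. In the 1st round 48 of the 57 members were called in at least 1 of the 6 pairs of non-hair tissues, beside 41.2% of all genes and 76.5% of the named genes. After transplantation 41 were called, beside 36.9% and 68.4%. Before transplantation 14 members were called higher in bladder cells than in each of the other 3 tissues (5.83% of all genes were), among them 4 of the 5 CLCA genes, Ano3, Cacna1i, Clcn5 and Clic5. Vaginal cells led in Aqp9, Cacna1c, Clca2, Clic2 and Fxyd4 (2.42% of all genes), tracheal cells in Aqp1, Aqp5 and Atp10a (1.16%), and thymic cells in Fxyd6 (2.82%). After transplantation bladder cells led in Aqp1, Atp12a, Atp1b1, Clca4, Clic5 and Kcne3 (4.19%), of which Atp1b1, Clca4 and Clic5 had led before. Thymic cells now led in 6 members, Ano5, Ano7, Atp10b, Atp13a4, Clic2 and Fxyd6 (2.89%). Tracheal cells led in Clic6 only (1.49%) and vaginal cells in Cacna1c only (1.38%). For these counts of members leading in a single tissue, the share of the named genes was not computed. The members had been drawn from genes listed as differing, so counts above the shares of all genes are no result about them. The change itself differed between the 5 tissues for 49 members by the F test of the interaction, beside 77.2% of all genes and 84.1% of the named genes, so a difference of this kind was the rule in these data.

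**Figure D5:**
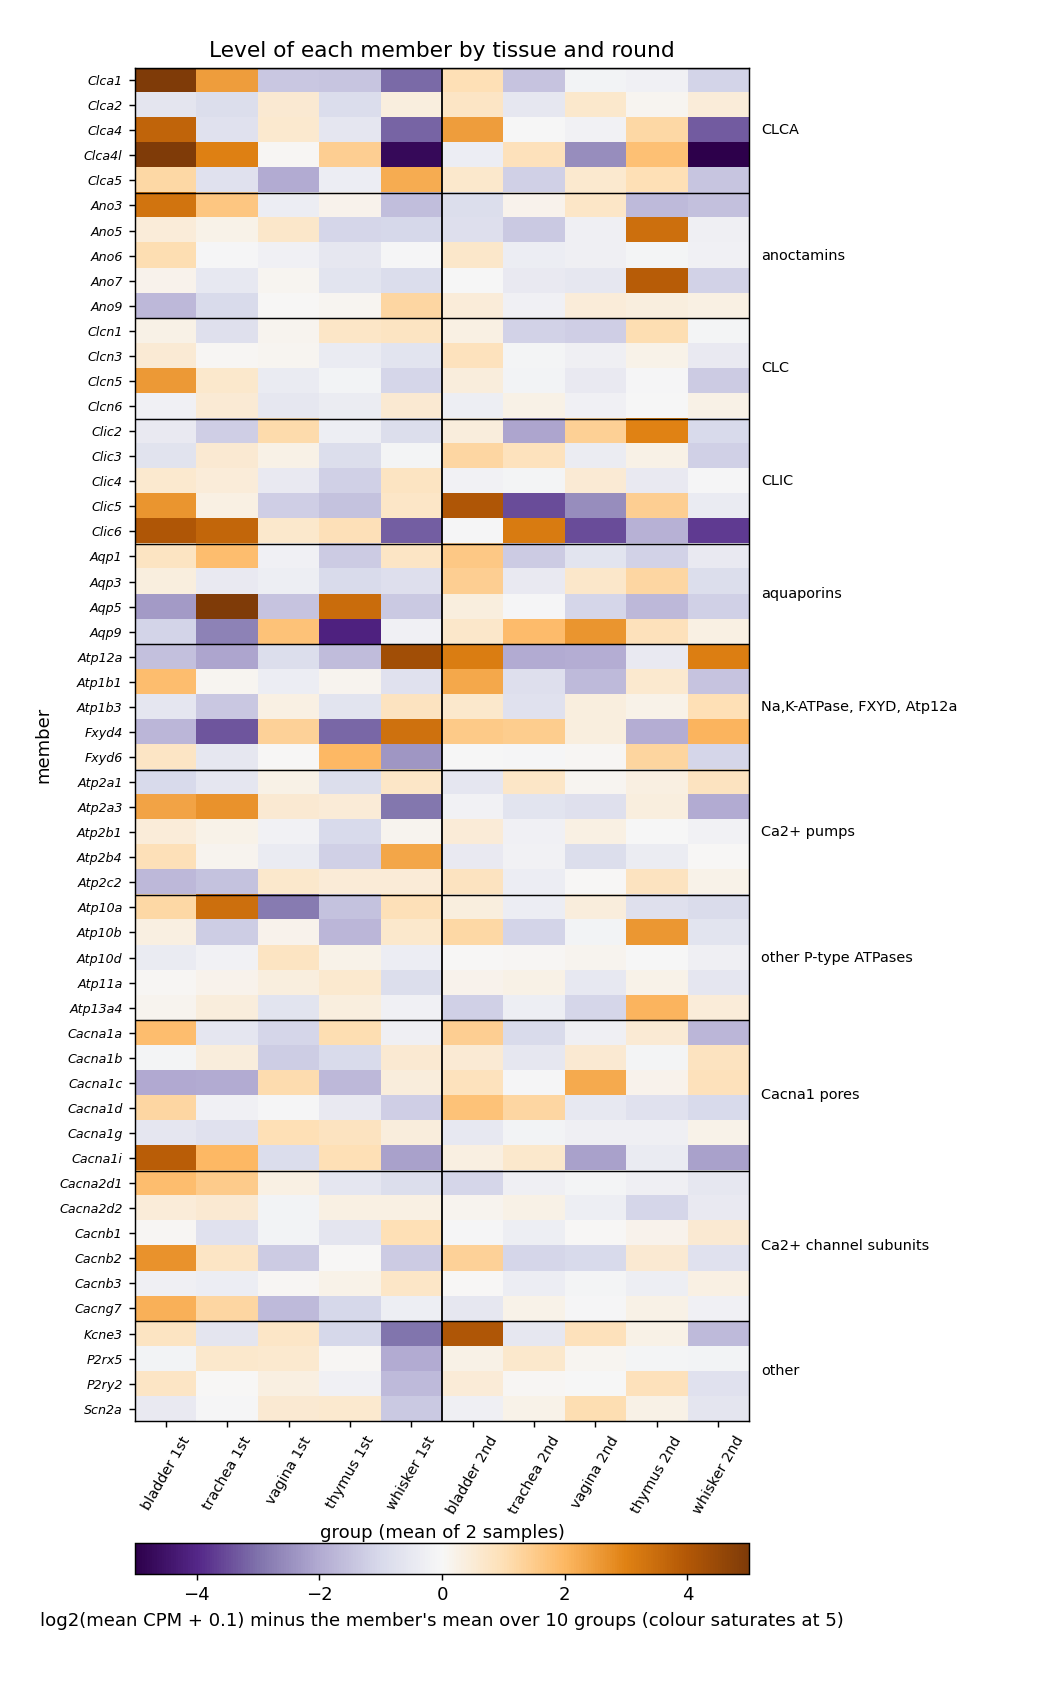
Level of the members described in the 10 groups, as log2 of the mean CPM of 2 samples plus 0.1, less the member's own mean over the groups, orange for higher and purple for lower, with colours ending at 5; the line divides the 1st round (left) from the 2nd (right). The bladder column of the 1st round is orange for Clca1, Clca4, Clca4l, Ano3, Cacna1i and Clic6, and the thymus column of the 2nd round for Ano5, Ano7 and Clic2.

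Differences from whisker cells of the same round are given as a description, because the members were named from such differences. Fxyd4 lay 5.21 (SE 0.20) below whisker cells in bladder and 6.91 (SE 0.31) below in tracheal cells before transplantation, and 0.51 (SE 0.12) and 0.57 (SE 0.12) below after it, all as log2 differences. Vaginal cells stayed 2.04 and then 1.70 below, and thymic cells 6.66 and then 4.03. Atp12a was 6.72 below whisker cells in bladder cells before and 0.24 (SE 0.36) above after, with log2 differences of -6.55 in tracheal, -5.66 in vaginal and -3.56 in thymic recovered cells. Both members also fell in the whisker cells, which are the reference here. Clca4l remained 2.95 to 7.27 above whisker cells in the 4 recovered tissues. Kcne3 did likewise, at 1.57 to 6.36 above.

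Other ion transport genes with a name, 43 in a list taken by symbol, were examined beside the members. In bladder cells 11 rose and 7 fell (25.6% and 16.3%, beside 20.9% and 22.2% of the named genes and 10.1% and 11.0% of all genes). In tracheal cells 7 rose and 5 fell (16.3% and 11.6%, beside 10.1% and 17.5% of the named and 4.39% and 8.04% of all genes), and in vaginal cells 5 and 10 (11.6% and 23.3%, beside 8.96% and 17.8%, and 4.25% and 7.53%). In thymic cells 7 rose and 5 fell (16.3% and 11.6%, beside 19.3% and 14.6%, and 8.49% and 6.89%), and in whisker cells 1 and 7 (2.3% and 16.3%, beside 5.67% and 9.69%, and 2.15% and 3.83%). The list's shares thus lay on both sides of those of the named genes. Cftr, the cyclic AMP-regulated chloride channel, fell in vaginal cells from a mean of 11.8 to 0.334 CPM (-5.09, SE 0.68, adjusted p = 2e-05). It also fell in bladder (-2.25, SE 0.35) and tracheal cells (-1.85, SE 0.25), while thymic cells had 135 and 106 CPM (-0.35, adjusted p = 0.062). Car12, a carbonic anhydrase of the cell surface, rose in bladder cells from 161 to 756 CPM (2.24, SE 0.08) and in tracheal cells from 83.5 to 396 CPM (2.25, SE 0.08), and changed by no more than 0.09 elsewhere. The tight junction gene Cldn1 rose in bladder cells (3.31, SE 0.21) and Cldn7 fell there (-3.59, SE 0.13), both also in tracheal cells (1.08 and -7.50). Cldn7 fell as well in vaginal cells, from a mean of 5.53 to 0.0209 CPM (-7.43, SE 0.63), and in whisker cells, from 0.268 to 0 CPM (-3.7, SE 0.74). In both tissues the 2nd round was below the detection floor, so the sizes of these falls depend on the small count added before logs. Cldn1 fell in whisker cells (-1.78, SE 0.2).

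Marker genes of other cell types and states moved between the rounds too. The summed level of the simple epithelium keratins Krt8 and Krt18 fell from 1990 to 2040 CPM to 300 to 304 in bladder cells, from 1170 to 1220 to 249 to 263 in tracheal cells, from 219 to 282 to 6.95 to 7.48 in vaginal cells and from 334 to 414 to 65.7 to 67 in thymic cells, both genes being detected in all 8 groups. In thymic cells that was Krt8 alone (371 to 59.7 CPM on average), while Krt18 went from 2.86 to 6.57 and Krt19 from 17.9 to 35.1 CPM. These are the tissues in which Clca4l, Clic6, Ano3, Atp2a3 and Cacna1i fell, in 3 or 4 of them each, and the part of the shift in those falls was not tested. The 10 fibroblast collagen and matrix genes, all detected in every group, summed to 524 to 635 CPM in bladder cells before and 309 to 310 after, and to 828 to 877 and 546 to 549 in tracheal cells. A single gene of the list went against the rest there, since Col5a2 went from 104 to 222 CPM in bladder and from 305 to 392 in tracheal cells while the other 9 genes were lower after transplantation in both (Col1a1 from 151 to 16.6 and from 153 to 25.8). In whisker cells the sum went from 1230 to 1240 CPM down to 453 to 487, mostly by Col5a2 (1080 to 322), with Col1a1 at 25.9 and 23.4. In vaginal cells it went from 509 to 521 up to 737 to 756, mostly by Col5a2 (383 to 598), and in thymic cells from 464 to 547 up to 628 to 655, with all 10 genes higher. The leukocyte list summed to 24.3 to 27.5 CPM in tracheal cells before, with 5 of 5 genes detected, and to 59.9 to 68.6 after, with 2 of 5, where only Cd68 was higher (11.7 to 58.5) and the other 4 were lower. In vaginal cells it went from 61.8 to 63.8 down to 18.7 to 21.2, by Cd68 (61.4 to 15.7), while Cd74 went from 1.19 to 4.1. In bladder cells the sum was 45.5 to 71 CPM before and 63.3 to 66.3 after. There Cd68 went from 14 to 54 and Cd74 from 37.4 to 9.58, and Cd53, Cd69 and Cd86 were lower too. The muscle gene Acta2 went from 1.59 to 15.7 CPM in thymic cells, while Acta1 and Ryr1 were lower after transplantation. In tracheal cells Ryr1 went from 2.5 to 17.9 CPM, while Acta1 and Acta2 were lower. The part of these markers in the members' changes was not tested. Tfap2b was at 8.14 to 8.42 CPM in recovered vaginal cells and at or below 0.154 CPM in the other non-hair groups. The 2 samples of a group differed most in 1st-round thymic and bladder cells, with a mean chi-square per gene of 42.9 and 34.5, and least in recovered thymic cells (2.48), and the values given without single samples above cover those groups.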

How the data were processed

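RNA-seq (TruSeq Stranded mRNA) was available for 20 samples in 10 groups of 2. The authors deposited raw read counts per gene: reads were trimmed with cutadapt 1.8, aligned to Rnor_6.0 with STAR 2.5.2b and counted with HTSeq 0.6.1. The strand setting of the counting was not given in the sources used here, and reads with several alignments were not counted. Rows naming no gene held 41.6 to 46.4% of each file's total and were left out, leaving 20723083 to 29824855 counts per sample (median 24566207.5).

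The 13302 genes that reached 1 CPM in any sample were scaled by TMM (edgeR 4.0.16) and fitted with limma voom (limma 3.58.1, R 4.3.3) in 1 model with a mean per group which left 10 residual degrees of freedom. The Benjamini-Hochberg adjustment ran over all genes of a comparison, and a call needed an adjusted p under 0.05 and a 2-fold change. An exact permutation test of 2 against 2 samples cannot go below p = 0.33 and was not used. Where a group held 3 counts or fewer, the ratio of counts scaled by depth is given with an exact 95% interval, or against 3 counts where the group had none. Intervals and floors cover counting error only. The scripts were tested on simulated data.

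Symbols came from the study's lists of genes that differ from whisker cells, of which 1 was available only in its alphabetical first stretch. Values in every sample are given for the members with the largest called changes in each tissue, those highest in a single non-hair tissue and those most abundant in each family, where members called in no tissue are given mostly by range. The members and lists were chosen with earlier results of these data known. Counts are over all 57 members, of which 3 are not reported here individually. Alternatives were edgeR's quasi-likelihood test, DESeq2 1.42.0, its size factors, other filters and fits, a higher fold limit, a block on the replicate number and leaving out each sample. Samples with the same number deviated from their groups with correlations of -0.123 to 0.24 (median 0.0193 over 45 pairs), so the numbers did not pair the samples.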

Additional observations from a re-analysis of the deposited data

Results flagged for a closer look

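In 13 members a called rise in 1 tissue met a called fall in another. The difference between the 2 changes was fitted by limma voom with Benjamini-Hochberg adjustment. The 2 changes had first been called in opposite directions in the same fit, and the widest pair was taken for each member. A large difference was thus built in, and its adjusted p is no separate support. The share of all genes with opposite calls over the 5 tissues was not computed. Among the 4 non-hair tissues it was 15.8% of members, 15.8% of the named genes and 6.73% of all genes. Values are differences of log2 fold changes between groups of n = 2 samples per round. The widest with all group means above the detection floor was Atp10a, where the change in vaginal cells exceeded that in tracheal cells by 7.41 (adjusted p = 3.3e-09). Next were Atp12a, bladder against whisker, at 6.96 (adjusted p = 4.5e-05), and Clic5, thymus against trachea, at 6.92 (adjusted p = 2.3e-10). The 1st-round bladder mean of Atp12a, from 7 counts, was barely above the floor at 0.134 CPM, and sample 2 lay below it at 0.0431 CPM. The size for Atp12a thus also depends on the small count added before logs. Fxyd4, trachea against whisker, differed by 6.34 (adjusted p = 1.5e-09), Atp10b, thymus against whisker, by 5.97 (adjusted p = 1.7e-06), and Ano3, vagina against bladder, by 5.29 (adjusted p = 4.9e-07). Smaller differences were those of Clic3, bladder against whisker, at 2.99 (adjusted p = 7.5e-08) and of Clca4, thymus against bladder, at 2.98 (adjusted p = 9.2e-08). In the remaining 5 a group lay below the floor, so the size depends on the small count added before logs. These were Aqp5, bladder against thymus, at 10.2 (adjusted p = 1.4e-06), Ano5, thymus against trachea, at 9.6 (adjusted p = 2.5e-05), Clca5, vagina against whisker, at 7.91 (adjusted p = 2.4e-06), Cacng7, vagina against bladder, at 5.91 (adjusted p = 6.1e-05), and Atp13a4, thymus against bladder, at 4.41 (adjusted p = 0.0011).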

How the results depend on the processing

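Only a higher fold limit moved the counts of called members by over 1.5 times. At a log2 fold change of at least 2 the calls were 18 in bladder (7 rose, 11 fell), 12 in trachea (2 and 10), 6 in vagina (3 and 3), 10 in thymus (8 and 2) and 3 in whisker cells (1 and 2), and 29 and 25 members differed between non-hair tissues in the 1st and 2nd round, since fewer changes pass a higher limit. Leaving out each sample in turn gave 26 to 31 calls in bladder, 13 to 19 in trachea, 10 to 15 in vagina, 19 to 23 in thymus and 9 to 12 in whisker cells, 46 to 48 and 38 to 42 between non-hair tissues, and 46 to 52 for the difference in change. With the replicate number as a block, the calls were 29, 19, 15, 23 and 12 in the same order of tissues, 48 and 40 between non-hair tissues, and 51 for the difference in change. Of the 97 called changes none reversed where an alternative gave a value, 29 lost their call when some sample was left out, and 8 did so under another tool, filter or fit. Only 84 of the changes had a value in the fit of the compared samples alone and 94 under the stricter filter, so the others were not tested there. DESeq2 accounted for 8 of the latter, including the tracheal fall of Clca1 (-4.52, adjusted p = 0.057), and the cause was not tested. Depth limits members near the floor of 0.099 to 0.143 CPM.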
